A study of Homo sapiens with 18 samples.

Results

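The response to Dex was examined in MDA-MB-231 cells depleted of HP1γ, which are 6 of the 18 libraries of the series. They were chosen by their labels: 3 libraries of siHP1γ cells with 100 nM Dex for 8 h, and 3 of siHP1γ cells with an equal volume of the vehicle Eth (ethanol) for the same time. This established human cell line was derived from a TNBC (triple-negative breast cancer), and Dex (dexamethasone) is a synthetic GC (glucocorticoid). SMART-pool siRNAs were transfected at 25 nM for 48 h. The 6 siNS libraries (non-specific siRNA, Dex or Eth) and the 6 siPRMT5 libraries set the response of siHP1γ cells beside that of other cells, and all 18 libraries share 1 fit. All cells were transfected, so no group shows the response of cells without siRNA, and the depletion was transient in 1 cell line.

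GCs act through GR (the glucocorticoid receptor, encoded by NR3C1), which is held in the cytoplasm by chaperones until it binds its ligand and moves to the nucleus. There it binds GC response elements, a pair of inverted 6-base sites, and recruits coregulators that raise or lower transcription. It also lowers inflammatory genes driven by the transcription factors AP-1 and NF-kB. HP1γ, encoded by CBX3, is a chromodomain protein that binds methylated lysine 9 of histone H3 and is found both in heterochromatin and on active genes.

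Total counts ranged from 9282074 to 12327634 in the 6 siHP1γ libraries and from 8682992 to 12472381 in the 18. Of 60642 gene symbols, 15298 had enough counts to be tested. The first principal component of the 6 libraries, with 48.6% of the variance, separated Dex from Eth. The second, with 26.1%, spread the 3 Dex libraries, and replicate 1 of siHP1γ Dex stood apart from replicates 2 and 3. Its counts differed from theirs by a chi-square of 7.38 and 12.3 per degree of freedom, against 2.1 to 3.23 in the other replicate pairs of siHP1γ cells. Of 12 markers of other cell types, 9 were below 1 CPM (counts per 1000000 counted) over the 6 libraries and 4 had no count. Of 12 luminal and epithelial markers, 6 were tested (ERBB2, GATA3, FOXA1, EPCAM, KRT8 and KRT18) and none was called. The others, ESR1, PGR, CDH1, KRT19, ESRP1 and ELF3, were too low to be tested. Summed over the 12, the level was 558 to 617 CPM with Eth and 443 to 585 CPM with Dex. The 6 markers of the MDA-MB-231 state (VIM, CD44, EGFR, AXL, CAV1 and S100A4) were all tested and none was called. Summed over these 6 genes, the level was 8610 to 9330 CPM with Eth and 7330 to 7910 CPM with Dex.

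CBX3, at chr7:26201162-26213607 of hg38, was depleted in every siHP1γ library. With Eth its level was 274, 234 and 258 CPM in siNS cells and 9.23, 9.91 and 10.5 CPM in siHP1γ cells. It was 3.87% of the siNS level with Eth and 5.96% with Dex, log2 fold changes of -4.69 (SE 0.111, adjusted p = 1.21e-20 in edgeR's quasi-likelihood test) and -4.06 (SE 0.105, adjusted p = 1.12e-19). The groups did not overlap, and the exact two-sided permutation test gave p = 0.1 each time, the smallest that 3 against 3 allows. In siHP1γ cells the remaining CBX3 was 15.8, 14.0 and 11.4 CPM with Dex, a log2 fold change of 0.48 (SE 0.13, adjusted p = 0.0273), which did not pass the threshold for the Dex response. Without replicate 3 of siHP1γ Dex the log2 fold change of CBX3 was 0.60 (adjusted p = 0.00537 in edgeR) and passed it. Reads of CBX3 can be shared with its processed pseudogenes and with the overlapping HNRNPA2B1.

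Dex changed 255 of the 15298 genes tested in siHP1γ cells (1.67%), with thresholds of 0.01 on the adjusted p and 1.5 on the fold change. Of these, 154 genes were higher (1.01% of those tested) and 101 were lower (0.660%). Increases were the larger changes: the median size was 2.16-fold for increases and 1.7-fold for decreases, and 84 increases but 22 decreases reached 2-fold. A 4-fold change was reached by 26 increases and 0 decreases. Without a fold limit, 849 genes had an adjusted p under 0.05. For each of the 255 genes called, the Dex and Eth ranges did not overlap, where 21.8% of all genes tested had such ranges. The 255 were called on these same libraries, so ranges without overlap are a description, here and for the genes named below. In RNA from whole cultures, fewer cells that express a gene and less of its RNA in each cell cannot be told apart. Without replicate 1 of siHP1γ Dex, 229 genes were called.

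TSC22D3, KLF9 and ANGPTL4, used here as markers of the GC response, were induced. TSC22D3 (chrX:107713221-107777342), which encodes GILZ, a leucine zipper protein that carries anti-inflammatory effects of GCs, was at 21.6, 21.2 and 21.7 CPM with Eth and at 127, 128 and 147 CPM with Dex. It rose by 2.63 on the log2 scale (SE 0.106, adjusted p = 1.3e-15), and the lowest Dex library stood far above the highest Eth library. KLF9 (chr9:70384604-70414657), a transcriptional repressor, was at 14.2, 16.6 and 15.2 CPM with Eth and at 71.6, 68.2 and 62.4 CPM with Dex, a rise of 2.13 (SE 0.0987, adjusted p = 1.75e-14). ANGPTL4 (chr19:8363289-8374370), an inhibitor of lipoprotein lipase, had 6, 10 and 16 counts with Eth and 74, 85 and 95 with Dex. With 3 libraries a group, its mean rose from 1.0 ± 0.407 (SD) to 7.69 ± 1.64 CPM, or by 2.88 on the log2 scale (SE 0.253, adjusted p = 8.27e-09). At so few counts with Eth, its fold change is less precise than that of the other markers.

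The other large increases fell in several known roles. BIRC3, a ubiquitin ligase of NF-kB signalling, rose from 41.8, 40.7 and 41.3 CPM to 231, 198 and 167 CPM. SNAI2, the transcription factor Slug of the mesenchymal state, rose from 26.7, 26.5 and 28.5 CPM to 130, 128 and 121 CPM, a log2 fold change of 2.21 (SE 0.071, adjusted p = 2.24e-17). Dex libraries of both genes lay well above the Eth libraries, with a wider spread for BIRC3 than for SNAI2. CAVIN2, a coat protein of caveolae, rose from 88.3, 84.8 and 75.7 CPM to 300.0, 337 and 313 CPM. FKBP5, the co-chaperone that lowers the affinity of GR for its ligand, rose from 80.8, 68.6 and 79.6 CPM to 266, 248 and 236 CPM. PER1, a repressor of the circadian clock, rose from 18.3, 20.9 and 19.5 CPM to 64.8, 69.0 and 70.2 CPM. The interleukin-1 receptor gene IL1R1 rose from 8.27, 7.76 and 7.75 CPM to 26.7, 26.2 and 25.9 CPM. In each of these genes the 3 Dex libraries were above the 3 Eth libraries. DNER, a Notch ligand (log2 fold change 2.45), ITGA10, a collagen-binding integrin subunit (2.39), VSTM2L (2.63), NNMT, which methylates nicotinamide (2.02), and PLEKHA7, a protein of adherens junctions (1.89), had lower levels with Eth, from 2.27 CPM for PLEKHA7 to 4.0 CPM for DNER, and also rose without overlap.

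The 10 largest decreases among called genes whose mean reached 5 CPM had varied roles. IL11, a cytokine of the interleukin-6 family, was at 32.8, 30.8 and 28.2 CPM with Eth and at 8.34, 9.78 and 8.93 CPM with Dex, a log2 fold change of -1.76 (SE 0.109, adjusted p = 7.58e-12). ESM1, the secreted proteoglycan endocan, was at 9.23, 10.0 and 9.46 CPM with Eth and at 3.23, 2.64 and 2.91 CPM with Dex. PLAU (chr10:73909177-73917496), the urokinase plasminogen activator, was at 428, 397 and 397 CPM with Eth and at 141, 159 and 159 CPM with Dex, a log2 fold change of -1.41 (SE 0.0719, adjusted p = 1.26e-13). All 3 Dex libraries of these genes were below all 3 Eth libraries. MMP1, an interstitial collagenase, fell from 22.7 ± 0.618 to 10.2 ± 0.81 CPM. TRAF1, an adaptor of tumour necrosis factor receptors, fell from 14.9 ± 1.84 to 6.30 ± 1.16 CPM, and BMF, a pro-apoptotic member of the BCL2 family, fell from 6.92 ± 0.544 to 3.18 ± 0.643 CPM. MAST4, a kinase (-1.34), MYPN, a sarcomere protein (-1.22), TAGLN3, an actin-binding protein (-1.21), and AC010247.2, a locus named after its clone (-1.14), fell with Dex and Eth ranges that did not overlap.

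**Figure D1:**
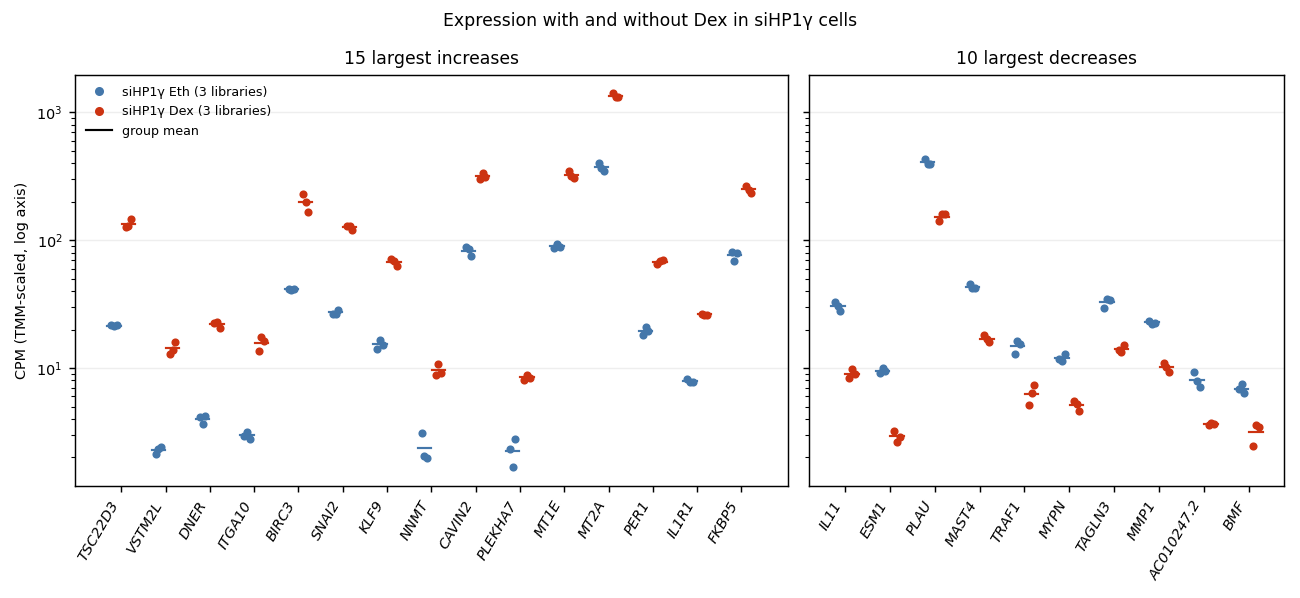
CPM (log axis) in siHP1γ cells of the 15 largest increases and 10 largest decreases among called genes whose mean reached 5 CPM. Each point is a library (blue Eth, red Dex) and each line a group mean. The 3 Dex points lie above the 3 Eth points for all 15 increases and below them for all 10 decreases. The genes were chosen on these same libraries.

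Of 27 classic GC-induced genes tested, 19 were higher with Dex in siHP1γ cells and 0 were lower. Of all genes tested, 1.01% were called higher and 0.660% lower. The list had a median log2 fold change of 0.88, against 0.00 over all genes tested. It was chosen with earlier results of these data known and holds TSC22D3, KLF9 and ANGPTL4, so these values are a description. Beside those named above, CEBPD, a C/EBP transcription factor, rose by 1.64, DUSP1, which dephosphorylates MAP kinases, by 1.45, and NFKBIA, the inhibitor of NF-kB, by 0.94 on the log2 scale. SGK1, a kinase that raises sodium uptake, rose by 0.84 (adjusted p = 2.78e-08), and BCL6, a transcriptional repressor, by 0.59 (adjusted p = 0.000145). SCNN1A, a subunit of the epithelial sodium channel, had 3, 2 and 4 counts with Eth and 60, 39 and 49 with Dex, and overlaps LTBR. Among the 8 not called, MAOA and PDK4 had log2 fold changes of 0.53 and 0.66, and ERRFI1, TIPARP, GLUL and FOXO3 lay between 0.02 and 0.27. CRISPLD2 and LPIN1 were at -0.24 and -0.35.

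Of the receptor and its chaperones, FKBP5 alone was called among 11 genes tested, where 1.67% of all genes tested were called. NR3C1 itself was at 138, 138 and 135 CPM with Eth and at 149, 129 and 116 CPM with Dex, with overlapping groups and a log2 fold change of -0.06 (SE 0.0895, adjusted p = 0.807). None of 16 receptor coregulators was called, with log2 fold changes of -0.42 to 0.19, and PRMT5, a histone arginine methyltransferase, was at 209 ± 2.54 CPM with Eth and 188 ± 11 CPM with Dex. None of 15 genes of HP1 proteins and H3K9 methylation was called. At the 1.67% called among all genes, 0 calls in lists as short as these are near the background. The levels of the other two HP1 genes were 114 and 120 CPM for CBX1 and 147 and 146 CPM for CBX5, with Eth and Dex. EHMT2, which encodes the H3K9 methyltransferase G9a, had 0 counts in the 6 libraries and in those of siNS cells, and was not tested. The paper immunoblotted G9a in MDA-MB-231 cells and depleted it by siRNA. The 0 counts can therefore not be read as absence of its RNA, and their reason was not tested.

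Among transcription factors of the KLF, C/EBP, FOXO and BCL6 families, 7 of 21 rose and 1 fell. Those that rose were KLF6 (0.62), KLF7 (0.94), KLF9, KLF15 (0.88), CEBPB (0.73), CEBPD and BCL6, and KLF2, a factor of endothelial and immune quiescence, was lower (-0.72). Of 16 circadian clock genes, PER1 and PER2 (0.87) rose, while NR1D1, which encodes REV-ERBα (-0.72), and BHLHE40, a repressor of clock transcription (-0.59), were lower. NR1D1 overlaps THRA. None of 12 immediate early and AP-1 genes rose and 3 fell, namely JUN (-0.79), EGR1 (-0.81) and IER2 (-0.71), with a list median of -0.32. JUN, a subunit of AP-1, was at 380, 339 and 354 CPM with Eth and at 182, 216 and 223 CPM with Dex, so that the groups were apart. In the list of MAP kinase phosphatases and receptor feedback, 1 of 14 rose (DUSP1) and 1 fell (DUSP10, -0.71). Of all genes tested, 1.01% were called higher and 0.660% lower. Calls in this list of 14 were 1 rather than 2 when only the 6 libraries were fitted, and also without replicate 1 or 3 of siHP1γ Dex or without any 1 of the siHP1γ Eth libraries.

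Inflammatory genes moved in both directions. Of 15 cytokines and chemokines tested, 5 fell and 2 rose, with a list median of -0.41. IL1B was at 55.7, 50.8 and 51.3 CPM with Eth and at 29.4, 24.8 and 27.5 CPM with Dex (log2 fold change -0.94, adjusted p = 1.64e-07), and IL1A (-0.60), CSF1 (-0.59) and IL24 (-1.79) fell with it and with IL11. All 3 Dex libraries of IL1B were below all 3 Eth libraries. The neutrophil growth factor CSF3 rose by 0.81 and the chemokine CXCL1 by 0.66. Of 19 NF-kB pathway genes, 4 rose, namely BIRC3 and the feedback inhibitors NFKBIA, TNFAIP3 (0.86) and IRAK3 (0.86). TRAF1 was the only gene of this list called lower, and the list median was -0.05. Of 7 metallothionein and zinc transport genes, which bind or move metal ions, MT2A, MT1E and MT1X rose. MT2A was at 403, 368 and 350 CPM with Eth and at 1410, 1310 and 1320 CPM with Dex. Reads of the metallothionein genes are uncertain because their sequences are close to each other.

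Matrix proteolysis and adhesion genes split evenly, with 5 of 31 higher, 5 lower and a list median of -0.08. PLAT, the tissue plasminogen activator, was at 24.3, 22.4 and 22.1 CPM with Eth and at 38.4, 42.7 and 44.2 CPM with Dex (log2 fold change 0.87, SE 0.107, adjusted p = 2.56e-06). CCBE1, a secreted matrix protein of lymphatic vessel growth, rose from 29.4, 25.2 and 27.0 CPM to 47.1, 44.4 and 43.8 CPM (0.73, SE 0.0865, adjusted p = 1.33e-06). FN1 (fibronectin) rose by 0.88, LOX, which crosslinks collagen, by 1.12, and ITGA10 as above. The urokinase activator PLAU and its receptor PLAUR (-1.01) fell, and MMP1, the matrix glycoprotein gene TNC (-0.75) and the protease gene ADAMTS1 (-0.68) fell as well. Among 8 mesenchymal genes SNAI2 alone was called, where 1.67% of all genes tested were called.

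Of 10 IGF binding and insulin signalling genes, 3 rose. IGFBP3, the main IGF carrier, was at 93.5, 96.3 and 108 CPM with Eth and at 183, 194 and 189 CPM with Dex (0.93, SE 0.0722, adjusted p = 8.14e-10), and the groups were apart. IGFBP1 rose by 0.92 and IRS2, an adaptor of the insulin receptor, by 0.85. Of 23 fuel metabolism genes, TXNIP, which limits glucose uptake (1.21), and ANGPTL4 rose. Of 24 TGF-beta and BMP genes, INHBA (1.35), ID1 (1.16), LTBP1 (0.95) and TGFB2 (0.63) rose and the other 20 were not called, with a list median of -0.08 and a lowest value of -0.81. Without replicate 2 of siHP1γ Dex, 2 of the list were called. Of 15 growth and angiogenic factors, PDGFB rose (0.77) while ESM1, HBEGF (-0.89) and TGFA (-0.77) fell. Beside the lists without a call given above, 5 further lists had no gene called. They were G1/S and DNA replication (18 genes tested), G2/M and mitosis (16), CDK inhibitors and MYC (8), interferon-stimulated genes (19) and cholesterol synthesis (16). Their medians lay between -0.10 and 0.01, and without replicate 3 of siHP1γ Eth 1 gene of the CDK inhibitors and MYC was called. At the 1.67% called among all genes tested, 0 calls in lists of this size are near the background. BMF was the 1 called of 10 BCL2 family genes, and HMOX1, an oxidative stress enzyme (-0.90), the 1 called of 12 stress response genes.

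**Figure D2:**
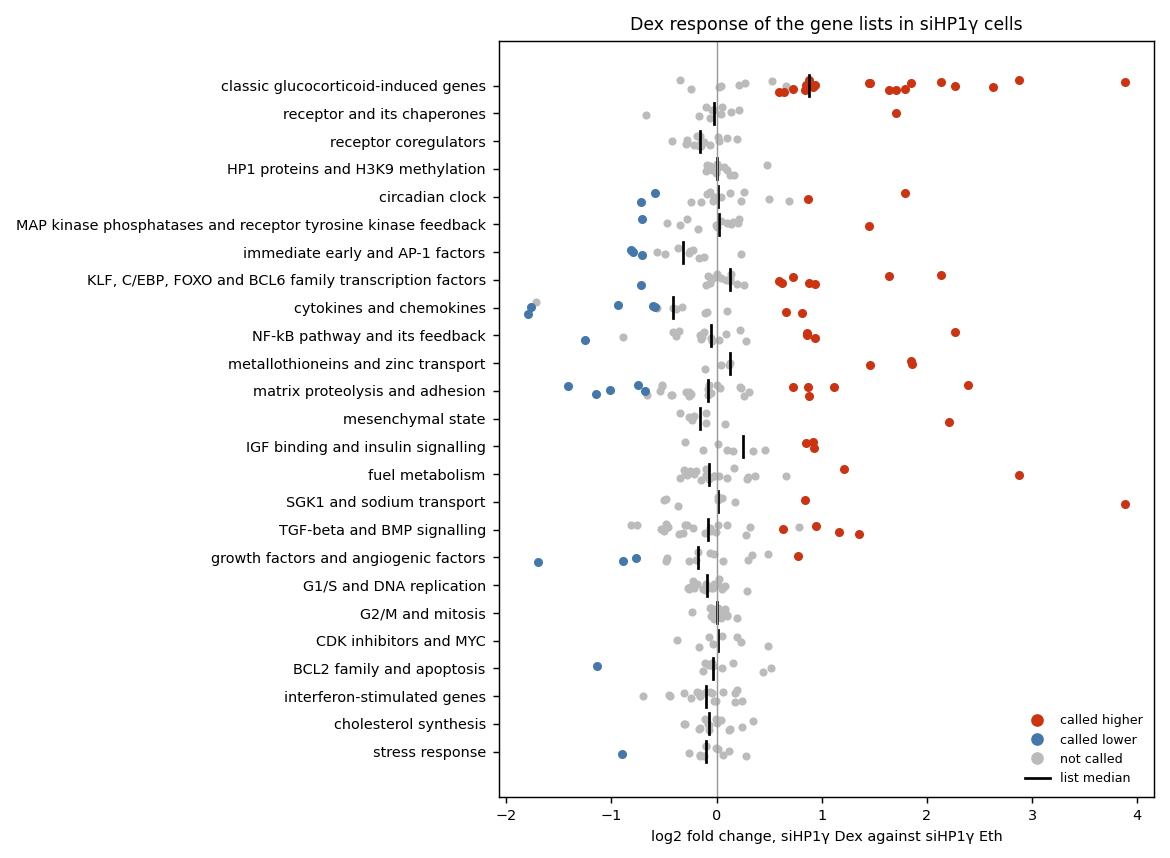
Log2 fold change of Dex against Eth in siHP1γ cells for every tested gene of 25 lists, where each point is a gene (red called higher, blue called lower, grey not called) and the black bar is the list median. The classic GC-induced genes have a median of 0.88, and 19 of the 27 are red. The lists were chosen with earlier results of these data known.

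The GC response element is AGAACA and TGTTCT 3 bases apart. RefSeq promoter windows (GRCh38.p14, 250 bases before to 50 after each start) were found for 10035 of the genes tested. With up to 2 mismatches in the 12 fixed bases, the element was in a window of 6 of 110 genes called higher (5.45%), 2 of 76 called lower (2.63%) and 87 of the 10035 (0.867%). With at most 1 mismatch it was in a window of 1 of 110, 0 of 76 and 3 of the 10035. The exact element was in 0 of these windows. One of these 6-base sites alone was in 22.7%, 11.8% and 12.5%. A gene can have several windows, all of which were searched. In the 5000 bases before the annotated start (hg38, GENCODE 44), the element with at most 1 mismatch was found for 5 of 145 genes called higher (3.45%), 3 of 93 called lower (3.23%) and 253 of all 13556 genes with such a window (1.87%). The exact element was there for 0 genes called higher, 0 called lower and 8 of the 13556 (0.059%). All these matches are letters in a window and were not tested for binding. Matches of 6 of the 8 called genes with at most 1 mismatch are shown, each with 1 mismatch and outside annotated exons. The 15 bases are in capitals, with 30 on each side.
BIRC3, chr11:102312861-102312935, plus strand: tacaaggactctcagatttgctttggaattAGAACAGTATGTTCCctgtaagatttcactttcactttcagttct
FN1, chr2:215437573-215437647, minus strand: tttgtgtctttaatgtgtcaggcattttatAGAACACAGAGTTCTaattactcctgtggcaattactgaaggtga
FDX1, chr11:110429681-110429755, plus strand: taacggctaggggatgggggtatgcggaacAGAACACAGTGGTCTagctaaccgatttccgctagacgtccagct
SSBP2, chr5:81754063-81754137, minus strand: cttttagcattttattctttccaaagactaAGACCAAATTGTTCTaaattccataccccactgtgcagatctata
CSF1, chr1:109909311-109909385, plus strand: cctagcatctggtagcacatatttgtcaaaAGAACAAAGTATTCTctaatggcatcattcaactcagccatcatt
CD274, chr9:5447522-5447596, plus strand: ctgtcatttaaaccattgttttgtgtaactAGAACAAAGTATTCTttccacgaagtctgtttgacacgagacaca

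The match of BIRC3 lies 4593 bases before its start, that of FN1 1544, of FDX1 237, of SSBP2 2310, of CSF1 901 and of CD274 2951. BIRC3 and FN1 are described above. FDX1, a mitochondrial ferredoxin that feeds electrons to steroid hydroxylases, was at 22.9, 25.2 and 28.8 CPM with Eth and at 48.6, 34.8 and 40.6 CPM with Dex (0.69, adjusted p = 0.000214). SSBP2, a single-stranded DNA binding protein, rose from 4.18 ± 0.978 to 8.10 ± 0.922 CPM. Of the 3 genes with a match that fell, 2 are shown, CSF1, the macrophage growth factor, from 116, 122 and 115 CPM to 77.1, 77.7 and 79.5 CPM, and CD274, which encodes PD-L1, from 22.7, 19.3 and 21.2 CPM to 11.6, 12.7 and 13.1 CPM (-0.76, adjusted p = 0.000317).

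In siNS cells, whose 6 libraries are not among those of siHP1γ cells, 414 genes were called (2.71%), 252 higher and 162 lower. Called in both were 194 genes, 134 higher and 60 lower in each and 0 in opposite directions, which is 76.1% of the siHP1γ list and 46.9% of the siNS list. Of the 61 called in siHP1γ cells alone, 58 had the same sign in siNS cells and 0 differed in their response by the test of the difference itself. Of the 220 called in siNS cells alone, 216 had the same sign in siHP1γ cells and 25 differed by that test. A gene called in one group of cells is, without that test, not shown to respond there alone.

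The difference of the Dex response, siHP1γ minus siNS, was called for 61 genes (0.399%) at an adjusted p under 0.05, 18 higher (0.118%) and 43 lower (0.281%). In 54 of the 61 the response was smaller in siHP1γ cells, whether an increase or a decrease. The 61 were chosen on these same responses, so such counts are a description. Genes chosen on the siPRMT5 libraries are described below. Of the 43 lower differences, 33 were genes that Dex raised in siNS cells, and 11 of the 18 higher were genes that Dex lowered there. The count was unsteady: 20 genes without replicate 1 of siNS Eth, 24 without replicate 1 of siNS Dex, 26 without replicate 1 of siHP1γ Eth, 186 without replicate 2 of siNS Eth, 42 without replicate 1 of siHP1γ Dex, and 298 with DESeq2 in place of edgeR. Without replicate 3 of siNS Eth, siNS Dex or siHP1γ Eth it was 25, 24 and 24. Lower differences were the more numerous in each of these.

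**Figure D3:**
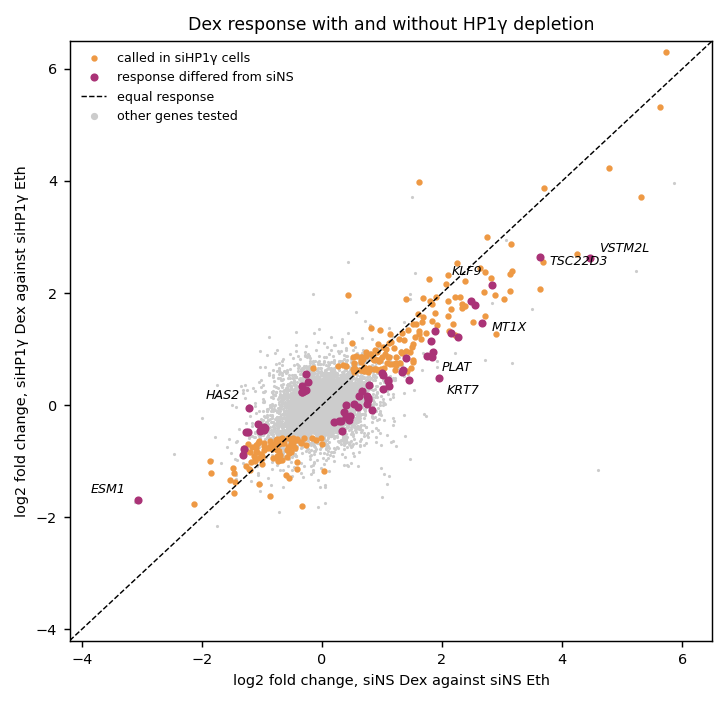
Log2 fold change with Dex in siNS cells (x axis) and siHP1γ cells (y axis) for each gene tested, where orange points were called in siHP1γ cells and purple points had a response that differed between the cells. Most purple points lie nearer to 0 on the y axis than on the x axis, 54 of 61 in all. They were chosen on the same responses that the axes show.

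Among the markers, TSC22D3 reached 134 ± 11.5 CPM with Dex in siHP1γ cells and 236 ± 36.7 CPM in siNS cells (SD, n = 3), from 21.5 ± 0.258 and 19.0 ± 1.02 CPM with Eth. The difference of its response was -1.0 (SE 0.151, adjusted p = 0.00104). KLF9 reached 67.4 ± 4.62 CPM in siHP1γ and 115 ± 9.63 CPM in siNS cells, a difference of -0.69 (SE 0.141, adjusted p = 0.0229). For both genes the levels with Eth were close and those with Dex did not overlap. For ANGPTL4 the difference was -0.26 (SE 0.453, adjusted p = 0.815), with an SE too wide to place it. PLAT was at 22.9 and 41.8 CPM in siHP1γ cells and at 41.7 and 149 CPM in siNS cells with Eth and Dex, a difference of -0.97 (SE 0.144, adjusted p = 0.000872). IGFBP3 was at 99.1 and 189 CPM in siHP1γ and 196 and 495 CPM in siNS cells, and CCBE1 at 27.2 and 45.1 against 35.8 and 78.6 CPM. Their differences of -0.41 (adjusted p = 0.0671) and -0.40 (adjusted p = 0.109) did not pass the threshold.

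The lowest and highest differences are ranked among called genes whose mean reached 5 CPM. The 5 lowest differences were those of VSTM2L (-1.84, adjusted p = 0.00107), KRT7 (-1.47, adjusted p = 0.0153), MT1X (-1.21, adjusted p = 0.0169), AL596244.1 (-1.05, adjusted p = 0.00404) and TSC22D3. VSTM2L rose from 2.12, 2.34 and 2.43 CPM to 13.0, 13.9 and 16.1 CPM in siHP1γ cells, against 0.840 ± 0.0825 to 18.9 ± 0.256 CPM in siNS cells, so that both its level with Eth was higher and its level with Dex lower. KRT7, a keratin, was at 6.38 CPM in replicate 1 of siHP1γ Dex and at 10.5 and 11.1 CPM in the others, and overlapped the Eth libraries at 6.04 to 7.29 CPM. Without that replicate it was called in siHP1γ cells (log2 fold change 0.72, adjusted p = 0.00566). MT1X reached 23.3 ± 3.31 CPM in siHP1γ and 41.6 ± 6.25 CPM in siNS cells. Its family members MT1E (-0.63, adjusted p = 0.00357) and MT2A (-0.25, adjusted p = 0.219) had smaller differences. PER1 (-0.75), BCL6 (-0.73), SGK1 (-0.55), FN1 (-0.86), LTBP1 (-0.89), which stores latent TGF-beta in the matrix, and DDIT4 (-0.73), an inhibitor of mTOR, were also lower. DDIT4 was at 94.2 and 114 CPM with Eth and Dex in siHP1γ cells and at 97.3 and 196 CPM in siNS cells.

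The 5 highest differences were those of ESM1 (1.37, adjusted p = 0.00299), HAS2 (1.16, adjusted p = 0.000614), AC093014.1 (0.83, adjusted p = 0.0276), TMEM158 (0.78, adjusted p = 0.0169) and FGF5 (0.76, adjusted p = 0.0229). HAS2, a hyaluronan synthase, was at 9.01, 9.73 and 9.55 CPM with Eth and at 9.52, 9.09 and 8.74 CPM with Dex in siHP1γ cells, where the groups overlapped. In siNS cells it fell from 52.6 ± 2.67 to 22.9 ± 3.96 CPM. ESM1 fell from 31.8 ± 3.8 to 3.82 ± 0.746 CPM in siNS cells and from 9.56 ± 0.401 to 2.93 ± 0.294 CPM in siHP1γ cells, so that the cells differed in the level with Eth more than in that with Dex. FGF5, a fibroblast growth factor, was at 51.9 ± 3.13 and 37.4 ± 4.81 CPM in siHP1γ cells and at 81.8 ± 6.81 and 34.9 ± 1.89 CPM in siNS cells. TMEM158 was at 140 ± 4.23 and 99.9 ± 14.6 CPM in siHP1γ and at 110 ± 3.25 and 45.8 ± 9.07 CPM in siNS cells. Without replicate 1 of siHP1γ Dex, TMEM158 was called in siHP1γ cells (-0.59, adjusted p = 0.000465). AC093014.1 was called there without replicate 2 (0.65, adjusted p = 0.00218) or 3 (0.61, adjusted p = 0.00507) of siHP1γ Dex, or without replicate 3 of siHP1γ Eth (0.63, adjusted p = 0.00783). CXCL8, a neutrophil chemokine (0.73), JUN (0.51) and HBEGF, a ligand of EGFR (0.44), were the other genes of the lists with a higher difference, and all fell with Dex in siNS cells.

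**Figure D4:**
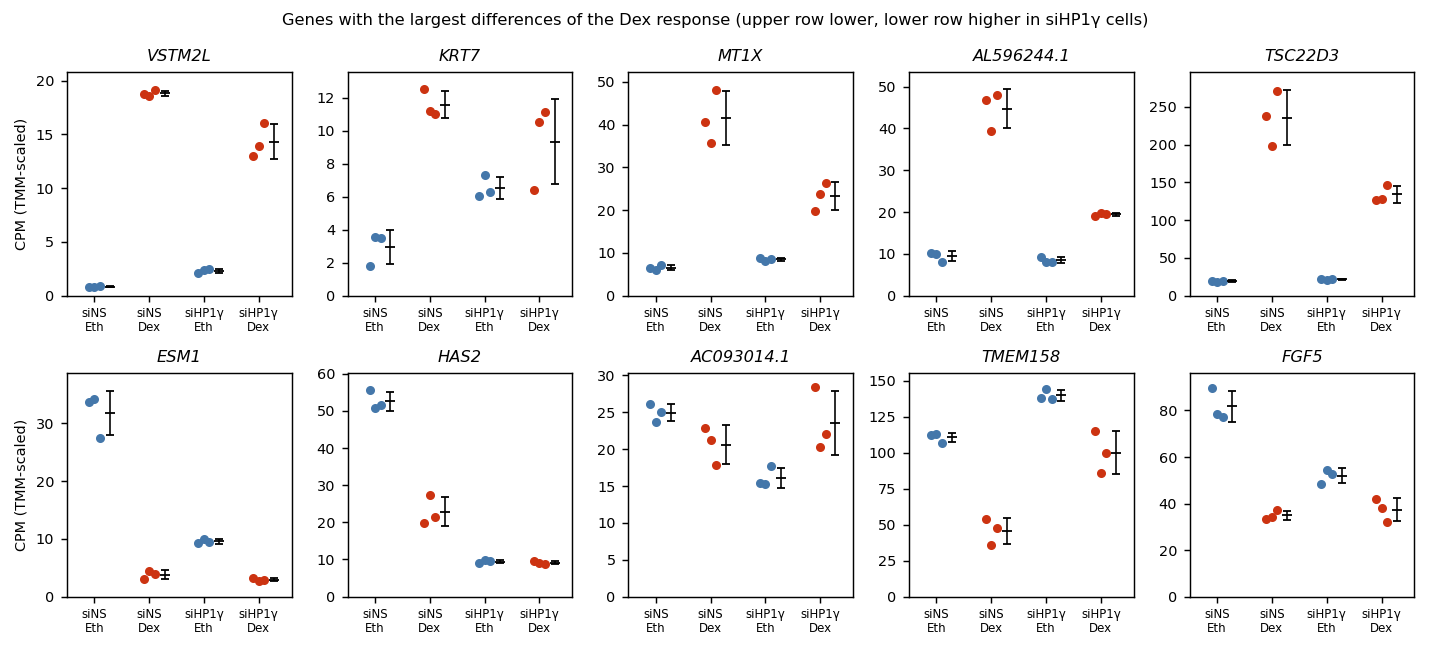
CPM of the 5 genes with the lowest (upper row) and the 5 with the highest (lower row) difference of the Dex response, siHP1γ minus siNS. They were ranked among called genes whose mean reached 5 CPM. Points are libraries (blue Eth, red Dex) and black bars the mean ± SD of 3 libraries. HAS2 is at 8.74 to 9.73 CPM in all 6 siHP1γ libraries, below its siNS libraries with and without Dex.

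Levels were compared at each treatment for these 61 genes. With Eth, 25 of the 43 genes with a lower difference were higher in siHP1γ than in siNS cells and 4 were lower. Of all genes tested, 31.8% differed between these cells with Eth, counting either direction. With Dex, 21 of the 43 were lower in siHP1γ cells and 2 were higher, where 24.0% of all genes differed in either direction. Of the 18 genes with a higher difference, 11 were lower and 3 higher in siHP1γ cells with Eth, and 7 were higher and 2 lower with Dex. These comparisons share libraries with the difference itself, so the counts are a description.

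Transcript GC content moved with the difference. It was known for 13559 of the genes tested (88.6%), and its median was 39.8% in 17 genes with a higher difference, 52.8% in 42 with a lower difference and 47.2% in all. Over 10786 genes whose mean reached 5 CPM, the median difference went from 0.22 in the 10% of genes with the lowest GC content to -0.17 in the 10% with the highest. The Dex response of siNS cells went from -0.13 to 0.14, and that of siHP1γ cells from 0.09 to -0.02. Across genes, which are not independent replicates, Spearman's rho with GC content was 0.461 for the siNS response, -0.261 for the siHP1γ response and -0.566 for the difference. The correlation differed between single libraries: Spearman's rho of the deviation from the mean of their cells was -0.644 in replicate 1 of siHP1γ Dex and 0.0692 and 0.422 in replicates 2 and 3, and -0.614 in replicate 1 of siNS Eth. With GC content in the offset, 90 differences were called, of which 45 were among the 61, and 274 genes were called for the Dex response of siHP1γ cells, of which 244 were among the 255. Of the 20 genes with a known GC content that are named for their difference, 19 were called with GC content in the offset, and CXCL8 was not (0.40, adjusted p = 0.19). The part of GC content in the differences was not tested further.

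**Figure D5:**
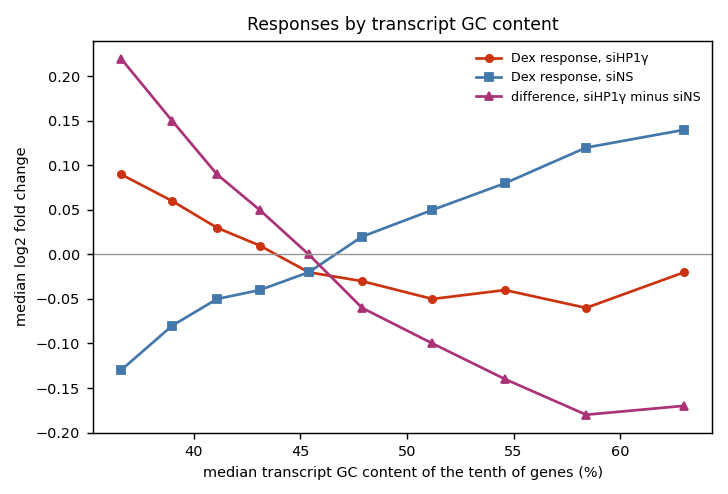
Median log2 fold change with Dex in siHP1γ cells (red circles) and siNS cells (blue squares), and their difference (purple triangles), over 10 equal parts of 10786 genes ordered by transcript GC content in percent. The difference goes from 0.22 to -0.17 as GC content rises.

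In siPRMT5 cells 832 genes were called (5.44%), and these libraries are in neither contrast above, although they share the filter, the scaling and the estimate of spread with them. Over the 412 genes that Dex raised in siPRMT5 cells, the median log2 fold change was 0.49 in siHP1γ and 0.66 in siNS cells, and 280 of the 412 (68%) rose less in siHP1γ cells. Over the 420 genes that Dex lowered there, the medians were -0.40 and -0.42, and 217 of the 420 (51.7%) fell less in siHP1γ cells. The response differed between siHP1γ and siPRMT5 cells for 321 genes (2.10%), 124 higher and 197 lower in siHP1γ cells. In 309 of the 321 it was the smaller one in siHP1γ cells. The 321 were chosen on these same responses, so this count is a description. FKBP5 rose by 1.71 in siHP1γ, 2.15 in siNS and 2.99 in siPRMT5 cells, IGFBP3 by 0.93, 1.33 and 2.25, and MT1E by 1.86, 2.49 and 3.26. SNAI2 rose by 2.21, 2.39 and 2.11, LOX by 1.12, 1.12 and 1.24, and IL11 changed by -1.76, -2.14 and -2.92. For LOX, whose groups were at 51.0 and 110 CPM in siHP1γ and at 51.0 and 111 CPM in siNS cells, the difference of the response had an SE of 0.0992.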

How the data were processed

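The series holds 18 RNA libraries of MDA-MB-231 cells, 3 replicates of each of 6 conditions, grouped by the siRNA, treatment and replicate in the titles. Per the labels and the methods of the study, libraries were made with Lexogen kits, and the submitters' processing notes name Bowtie2 2.4.2, HTSeq 0.9.1 and hg38. The authors deposited raw counts per gene symbol for each library, without normalization. Strand setting and annotation are not given in the sources used here, so reads of overlapping or antisense genes and of pseudogenes cannot be told apart. Bowtie2 does not split reads over introns, which can lower the counts of genes with many short exons. A table that holds the authors' own fold changes and p-values was not used.

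Counts were filtered with filterByExpr, scaled by TMM and fitted over the 18 libraries with edgeR 4.0.16 in R 4.3.3 (glmQLFit and glmQLFTest, 1 mean per condition, Benjamini-Hochberg adjustment over 15298 genes). Standard errors are the log2 fold change over the root of F. The Dex response was called with thresholds of 0.01 on the adjusted p and 1.5 on the fold change, and differences of responses at an adjusted p under 0.05. The scripts were tested on simulated data. CPM are TMM-scaled. The study calls the replicates biological, while the labels do not say whether they came from separate cultures, so p-values measure the spread between these libraries. Same-numbered libraries were not treated as pairs.

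The members and the gene lists were chosen with earlier results of these data known. The genes named include TSC22D3, ANGPTL4, KLF9, CBX3, NR3C1, PRMT5, CCBE1, IGFBP3 and PLAT. Others are the 15 largest increases and 10 largest decreases among called genes whose mean reached 5 CPM. Each of these had 1 direction in the 3 same-numbered libraries. The rest are members of the lists, genes with a match to the response element, and the 5 highest and 5 lowest called differences. For these differences the mean over the siHP1γ and siNS libraries reached 5 CPM. FDX1, SSBP2 and CD274 were chosen after their upstream sequence was read. Coordinates are from GENCODE 44 on hg38, which held 88.6% of the genes tested. Genes named after clones were not matched. The difference of 1 list member is not reported here. Alternatives were DESeq2 1.42.0, other scalings and filters, the replicate number as a block, only the libraries compared, other limits and each library left out. GC content in the offset was added after the data were seen.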

Additional observations from a re-analysis of the deposited data

Results flagged for a closer look

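The Dex response differed for 61 genes between siHP1γ and siNS cells and for 321 genes between siHP1γ and siPRMT5 cells, each by the test of the difference in edgeR at an adjusted p under 0.05. The genes named in the text are given here by the difference of their log2 fold change, siHP1γ minus siNS. Among GC-induced genes it was -1.0 for TSC22D3, -0.69 for KLF9, -0.75 for PER1, -0.55 for SGK1, -0.73 for BCL6, -0.63 for MT1E and -1.21 for MT1X. It was -0.97 for PLAT, -0.86 for FN1, -0.89 for LTBP1, -1.84 for VSTM2L, -1.47 for KRT7, -1.05 for AL596244.1 and -0.73 for DDIT4. Among the genes that Dex lowered in siNS cells it was 1.37 for ESM1, 1.16 for HAS2, 0.78 for TMEM158, 0.76 for FGF5, 0.73 for CXCL8, 0.51 for JUN and 0.44 for HBEGF. AC093014.1 (0.83) was not called in either group of cells. No group of 3 libraries was searched for single outlying values.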

How the results depend on the processing

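The Dex response of siHP1γ cells counted 255 genes, 106 with a fold change of at least 2 and 504 without a fold limit, of which 233 were higher and 271 lower. That of siNS cells counted 194 and 808 under these limits, against 414. Under the other alternatives, these 2 counts and the 194 genes called in both stayed within 1.5 times. The difference between siHP1γ and siNS cells counted 61 genes, 298 with DESeq2 on the 18 libraries, 374 with no filter on low counts, 356 with DESeq2 on the libraries compared, and 20 to 186 with 1 library left out. With the replicate number as a block it counted 94, of which 60 were among the 61, and the Dex response 253. Same-numbered siHP1γ libraries did not deviate together (correlations of -0.217, -0.0764 and -0.112), and with the block no other count moved by over 1.5 times. The difference between siHP1γ and siPRMT5 cells counted 491 genes with GC content in the offset, against 321.

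The 15 largest increases and 10 largest decreases were called in every alternative in which they were tested. Of the 10 genes with the 5 highest and 5 lowest differences, 5 were called in every alternative. KRT7, MT1X, AC093014.1, TMEM158 and FGF5 were lost with 1 library left out. For the other genes named for their difference, KLF9 and PLAT among them, only the alternative with GC content in the offset is given. KRT7 was lost without siNS Eth 1, siNS Dex 1 or siHP1γ Eth 2 (adjusted p 0.0521 to 0.0909), MT1X without siNS Eth 1, siNS Dex 3 or siHP1γ Eth 1 or 3 (0.0575 to 0.0724), and TMEM158 without siHP1γ Eth 1 or 3 (0.0502 to 0.0572). AC093014.1 was lost without any 1 of 6 libraries (0.0683 to 0.123), namely siNS Eth 1 and 3, siNS Dex 3, siHP1γ Eth 1 and 2 and siHP1γ Dex 1, and FGF5 without any 1 of 6 (0.0539 to 0.0981), namely siNS Eth 1, siNS Dex 1 and 2, siHP1γ Eth 1 and 3 and siHP1γ Dex 1. The log2 fold change of NR3C1 ranged from -0.16 to 0.03 with 1 library left out. Called genes of the gene lists stayed within 1.5 times the main count in 744 of 756 values. Fuel metabolism and SGK1 with sodium transport had 1 call rather than 2 where genes needed at least 10 counts in every library to be tested. The cause of these changes was not tested. Depth limits the low genes: SCNN1A with Eth rests on 2 to 4 counts a library.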
